A study of Mus musculus with 6 samples.

Results

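The 10 genes described here are Klhl3, Tmem132b, Afap1, Pdyn, Pi15, Tenm3, Pfpl, Chrng, Tmem179 and Tdrd9, out of 50599 genes in a table of RNA sequencing of RAW264.7 cells, a mouse macrophage line. They were chosen by their values in this very comparison, as genes with few or no reads in vehicle-treated cells and many reads after 4-hydroxytamoxifen (4-OHT). Their difference between the groups is therefore given as a description, without a test. All the cells carried ∆Raf-1:ER, a Raf-1 kinase fused to the oestrogen receptor so that 4-OHT switches it on, which was delivered by a retrovirus. The infected cells had been kept in hygromycin B at 70 µg/mL for 7 days to remove uninfected ones, and serum was taken away 24 h before RNA was collected. The 4-OHT group was given 100 nM 4-OHT and the vehicle group ethanol, and both were sampled on day 3, with 3 libraries a group, lettered A, B and C. The labels do not state that the replicates came from separate cultures, so the p-values given here speak of the spread among these libraries alone, which may be technical. Every library carried the construct, and no library of cells without it was analysed here, so effects of 4-OHT itself and of Raf-1 activation cannot be told apart.

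The 10 genes are known from tissues other than macrophages. Klhl3 is a kelch-like protein that brings WNK kinases to the CUL3 ubiquitin ligase, best known in the distal kidney tubule. Afap1 links actin filaments to Src kinases. Pdyn is the precursor of the dynorphin opioid peptides, and Pi15 is a secreted protein of the CAP superfamily. Tenm3 is a teneurin, a large adhesion protein of developing neurons that binds latrophilins on facing cells. Chrng is the gamma subunit of the fetal muscle acetylcholine receptor. Tdrd9 is a Tudor-domain helicase of the piRNA pathway, which silences transposons in male germ cells. Pfpl belongs to the MACPF family of pore-forming proteins, like perforin and macrophage-expressed Mpeg1. Tmem132b is a membrane protein of a family studied mostly in the nervous system, and Tmem179 is a membrane protein.

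The promoters of these genes were unlike each other in their content of CpG, the dinucleotide at which mammalian DNA is methylated. RefSeq promoters (build GRCm38.p6, 250 bases before and 50 after a transcript start) were at hand for 9 of the 10 genes, with a pair for Pdyn, and Pi15 had no entry. Of these, 4 are printed here, with CG in capitals in Klhl3, Tmem179 and Chrng. Klhl3 is shown because it had the most reads with 4-OHT among the genes with 0 vehicle reads, Tmem179 and Chrng because they mark the CpG-richest and CpG-poorest ends. Tenm3 is shown because it alone among the 10 promoters held the cyclic AMP response element (CRE) letters TGACGTCA, which are its capitals. The promoters lie at chr13:58113598-58113897 (minus strand) for Klhl3, chr12:112511111-112511410 (minus) for Tmem179, chr1:87205561-87205860 (plus) for Chrng and chr8:48674641-48674940 (minus) for Tenm3. The RefSeq starts of Tenm3, Chrng and Tmem132b, and a start of the Pdyn pair, fall inside the span that the table gives these genes. Other starts are therefore possible.
Klhl3: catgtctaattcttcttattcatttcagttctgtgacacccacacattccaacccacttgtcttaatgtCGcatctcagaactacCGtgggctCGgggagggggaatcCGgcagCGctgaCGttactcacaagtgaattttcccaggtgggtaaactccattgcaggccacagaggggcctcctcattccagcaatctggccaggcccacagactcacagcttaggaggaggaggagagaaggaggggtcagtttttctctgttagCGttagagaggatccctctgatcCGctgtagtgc
Tmem179: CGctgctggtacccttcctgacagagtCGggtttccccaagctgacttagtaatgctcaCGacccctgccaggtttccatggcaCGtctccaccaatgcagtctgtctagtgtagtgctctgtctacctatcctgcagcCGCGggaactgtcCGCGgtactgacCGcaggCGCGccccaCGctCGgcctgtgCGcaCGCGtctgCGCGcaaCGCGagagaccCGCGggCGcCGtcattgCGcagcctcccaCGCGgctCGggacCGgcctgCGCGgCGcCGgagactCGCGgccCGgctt
Chrng: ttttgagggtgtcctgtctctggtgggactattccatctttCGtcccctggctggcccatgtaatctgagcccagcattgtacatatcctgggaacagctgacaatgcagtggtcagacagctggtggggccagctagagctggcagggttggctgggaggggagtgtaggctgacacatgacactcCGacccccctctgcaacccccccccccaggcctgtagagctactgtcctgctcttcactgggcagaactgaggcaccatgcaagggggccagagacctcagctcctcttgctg
Tenm3: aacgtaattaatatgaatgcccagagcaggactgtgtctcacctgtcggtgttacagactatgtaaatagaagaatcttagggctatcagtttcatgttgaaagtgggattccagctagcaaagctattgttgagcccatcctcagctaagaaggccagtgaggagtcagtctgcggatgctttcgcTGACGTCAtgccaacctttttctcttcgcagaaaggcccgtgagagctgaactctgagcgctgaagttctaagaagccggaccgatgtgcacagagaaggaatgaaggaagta

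The Tmem179 promoter held 36 CG dinucleotides and the Chrng promoter 2, with the 8 of Klhl3 between them. CpG observed over expected, which corrects the CG count for base composition, was 1.07 for Tmem179, above 97.1% of the 32851 promoters of 27025 genes. It was 0.0758 for Chrng, above 9.92% of them, and 0.389 for Klhl3, near the median of 0.384 over all promoters. Afap1 (0.687), Tenm3 (0.605) and Tmem132b (0.573) lay in the upper part, while Tdrd9 (0.43), Pfpl (0.42) and Pdyn (0.425 and 0.342) lay near the middle. The median of the 10 promoters was 0.428, and 3 of them reached 0.6, against 35.8% of all promoters. CpG-rich and CpG-poor promoters both occurred among the 10.

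**Figure D1:**
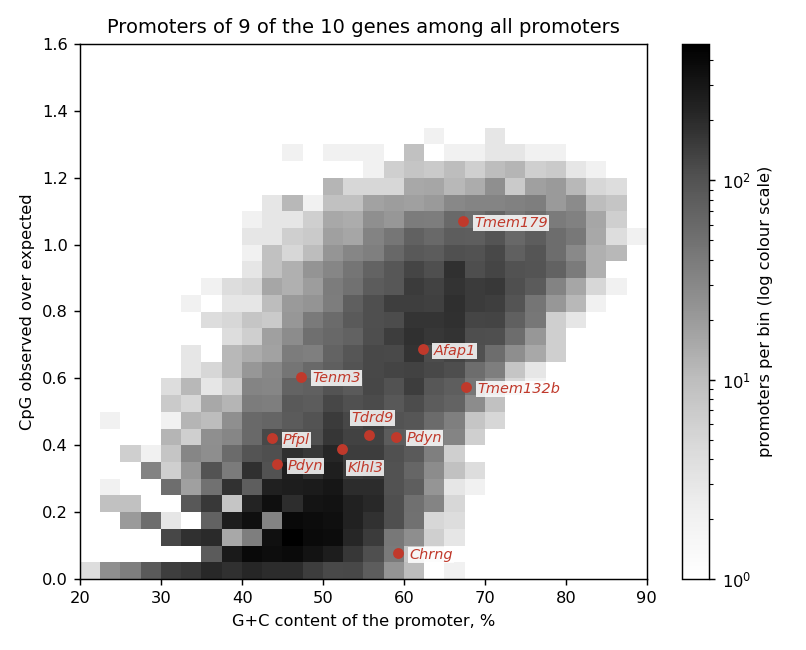
CpG observed over expected (y axis) against G+C content in % (x axis) for 300-base promoters. Red points are the 10 promoters of 9 of the genes, and grey squares count all 32851 promoters on a log colour scale; Tmem179 lies at the top with 1.07 and Chrng at the bottom with 0.0758.

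Letters of 8 known elements were searched on both strands of the same windows, as a description of the sequence and not of any factor's binding. CCAAT stood in 6 of the 10 promoters, those of Afap1, Tdrd9, Tmem179 and Pfpl and both of Pdyn, against 37.4% of all promoters. The E-box CACGTG stood in Afap1 and Tdrd9 (7.15% of all) and the GC box GGGCGG in Afap1 and Tmem132b (35.7% of all). TGACGTCA stood in Tenm3 and in 1.79% of all promoters. The AP-1 letters TGANTCA (7.81% of all), the ETS core CCGGAA (14.9%), TATAAA (13.6%) and the CArG box (1.63%) stood in 0 of the 10, and other windows were not searched. None of these letters was shared by all 10 promoters.

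Depth and identity of the libraries bear on every value that follows. Each library had between 11629150 and 15943722 reads, and values are normalized counts, the read count divided by the library's size factor. Of 11 macrophage markers, 10 had enough reads to be tested, and their summed normalized count was 89056 to 111301 with 4-OHT and 118079 to 121218 with vehicle. With 4-OHT, 5 of the 10 were called higher and 4 lower by limma at an adjusted p under 0.05, against 33.0% and 32.5% of all tested genes. The lysozyme gene Lyz2, the most abundant of these markers, averaged 42932 normalized counts with 4-OHT and 67465 with vehicle and fell by 0.66 on the log2 scale. Csf1r, the receptor of the macrophage growth factor, fell by 0.71, and the surface marker Adgre1 fell by 0.89. The integrin subunit Itgam rose by 2.21 and the leukocyte antigen Ptprc by 0.69, and both were called in all 12 alternatives. For Itgam, which the table lists in a pair of rows, the row with more reads was used. Cd68 rose by 0.39 and Cd14 by 0.48, calls that were lost when the libraries were scaled by their total counts. Mertk, a receptor for dying cells, had 4 reads with 4-OHT and 3 with vehicle. Since RNA was taken from whole cultures, fewer cells with a transcript and less transcript per cell cannot be told apart.

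Klhl3 (ENSMUSG00000014164, chr13:58004221-58113592, minus strand) was silent at this depth in vehicle cells. Its normalized counts were 632, 624 and 487 in 4-OHT libraries A, B and C, and 0, 0 and 0 in vehicle libraries A, B and C. All of its 1559 reads came from the 4-OHT libraries, where A and B lay close together and C lay lower. A count of 0 allows up to 3 reads over the 3 vehicle libraries, and against that floor Klhl3 was at least 664-fold higher with 4-OHT. Floors and intervals cover counting error only.

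Afap1 (ENSMUSG00000029094, chr5:35893319-36003923, plus strand) had the most reads of the 10 genes. It had normalized counts of 3424, 3057 and 2597 with 4-OHT and of 4.87, 2.97 and 1.44 with vehicle, in libraries A, B and C. Library A was the highest and C the lowest in both groups, and the groups lay far apart. The ratio of the group rates was 1036, with a 95% exact binomial interval for counting error of 563 to 2162, since it rests on 10 vehicle reads. With 4-OHT, Afap1 stood above 93.1% of the 11828 tested genes.

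Tdrd9 (ENSMUSG00000054003, chr12:111971559-112068854, plus strand) went against the label of a start near zero. It had normalized counts of 80.4, 96.1 and 71.4 in 4-OHT libraries A, B and C, and of 5.85, 5.93 and 5.77 in vehicle libraries A, B and C. The vehicle libraries were alike, with 20 reads in all, and every 4-OHT library stood above them. Its ratio of 14.2 (95% interval 8.96 to 23.7) was the smallest of the 10, and without any single library it stayed between 13 and 15.1. Its 222 reads with 4-OHT put it above 22.8% of tested genes, so in both groups it was a weakly expressed gene.

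The secreted products Pdyn and Pi15 had 0 vehicle reads. Pdyn (ENSMUSG00000027400, chr2:129686565-129699844, minus strand) had normalized counts of 160, 250.1 and 204 in 4-OHT libraries A, B and C, against 0 in each vehicle library. It was at least 234-fold higher with 4-OHT on its 550 reads, and the highest 4-OHT library had 1.57 times the lowest. Pi15 (ENSMUSG00000067780, chr1:17601901-17630939, plus strand) had 119, 171 and 154 with 4-OHT, against 0 in each vehicle library, and was at least 169-fold higher on 398 reads. Both had their lowest 4-OHT value in library A and their highest in B.

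The membrane proteins of neural tissue spanned a wide range of levels. Tmem132b (ENSMUSG00000070498, chr5:125531774-125792583, plus strand) had normalized counts of 1436, 1822 and 1573 in 4-OHT libraries A, B and C and of 2.92, 0 and 1.44 in vehicle libraries A, B and C. The groups lay far apart, and 4-OHT library B was the highest of all. The ratio was 1105 (95% interval 473 to 3404) on 5 vehicle reads, and 1934 without vehicle library A, which held 3 of them.

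Tenm3 (ENSMUSG00000031561, chr8:48227682-48843951, minus strand) had 155, 144 and 130 with 4-OHT against 0 in each vehicle library, and was at least 163-fold higher on 384 reads. Its 4-OHT libraries were the closest of the 10 genes, with a coefficient of variation (CV, the SD over the mean) of 8.69%, and counting alone would give 8.84%. Tmem179 (ENSMUSG00000054013, chr12:112500184-112511160, minus strand) had 63.4, 60.1 and 37.4 with 4-OHT against 0 in each vehicle library. Its 144 reads were the fewest of the 10 genes, with library C well under the others, and it was at least 61.3-fold higher with 4-OHT.

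The receptor subunit gene Chrng (ENSMUSG00000026253, chr1:87204657-87212694, plus strand) had normalized counts of 56.6, 105 and 77.1 in 4-OHT libraries A, B and C and of 0, 0 and 0.721 in vehicle libraries A, B and C. It had the widest spread with 4-OHT, a CV of 30.4%, with library B at 1.85 times the level of A. The ratio of 273 rests on a single vehicle read, and its 95% interval ran from 48.5 to 10848. Without vehicle library C, which held that read, only a bound of at least 54.2-fold could be given.

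The pore former gene Pfpl (ENSMUSG00000040065, chr19:12427905-12432110, plus strand) had normalized counts of 797, 1027 and 852 in 4-OHT libraries A, B and C and of 2.92, 0.989 and 0.721 in vehicle libraries A, B and C. The groups lay far apart, with B highest with 4-OHT and A highest with vehicle. The ratio was 612 (95% interval 262 to 1887) on 5 vehicle reads, and 1072 without vehicle library A, which held 3 of them.

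**Figure D2:**
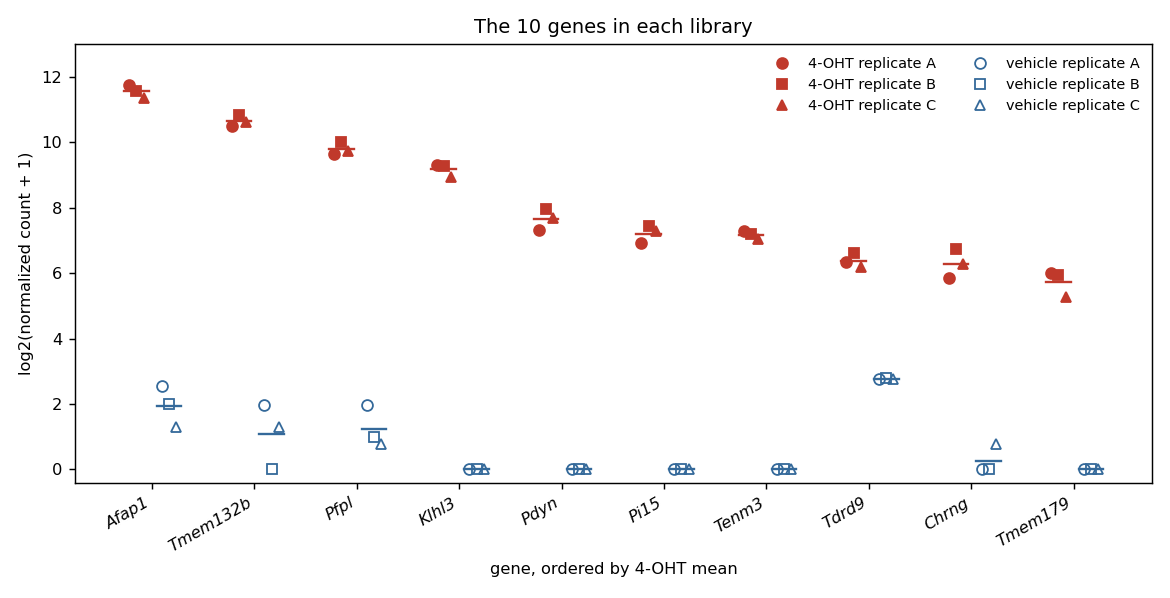
Each gene's log2(normalized count + 1) (y axis) in the 3 4-OHT libraries (filled red) and the 3 vehicle libraries (open blue), with bars at the group means of 3 libraries. The red points lie above the blue points for every gene by the choice of the genes; Tdrd9 has the highest vehicle mean, with vehicle values of 5.85, 5.93 and 5.77 normalized counts.

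Together the 10 genes had 18304 reads with 4-OHT and 41 with vehicle, of which 20 were Tdrd9's. No single library carried the reads. Without Tdrd9, 4-OHT libraries A, B and C gave 6042, 6647 and 5393 reads, and vehicle libraries A, B and C gave 11, 4 and 6. There were 5 genes with 0 vehicle reads, 4 with 1 to 10, and Tdrd9 with more. Without vehicle library C, the deepest, the floor covers fewer reads, and the bounds of the 5 genes fell to 395 for Klhl3, 139 for Pdyn, 101 for Pi15, 97.3 for Tenm3 and 36.5 for Tmem179. All 10 passed the filter on low counts, which their 4-OHT reads alone ensured, and the log2 change of normalized count + 1 ran between 3.60 ± 0.21 for Tdrd9 and 9.61 ± 0.25 for Afap1 (SE). In the authors' deposited table the log2 fold changes ran between 3.82 for Tdrd9 and 11.8 for Klhl3.

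Per kilobase of exon, which makes levels of genes comparable, the 4-OHT levels fell into 3 steps. Afap1 averaged 239 normalized counts per kilobase, Pfpl 228 and Tmem132b 195, and neighbours in this order overlapped between libraries. Klhl3 with 79.4 and Pdyn with 70.9 formed the middle step and overlapped with each other. Tmem179 (21.5), Pi15 (21.4), Chrng (19.1), Tdrd9 (15.3) and Tenm3 (14) formed the lowest, each overlapping with the next. The libraries of Tmem132b and Klhl3 did not overlap, nor did those of Pdyn and Tmem179.

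The 10 genes did not follow a single order of libraries. Tmem132b, Pdyn, Pi15, Pfpl and Chrng had A lowest and B highest among the 4-OHT libraries, an order seen in 15.9% of tested genes. Klhl3, Afap1, Tenm3 and Tmem179 had C lowest and A highest, as in 21.1% of tested genes, and Tdrd9 had C lowest and B highest. The median CV with 4-OHT was 14.6% over the 10 genes and 6.44% over the 9161 tested genes with 50 to 3500 normalized counts. It was 11.3% over the 694 genes in that band that were called higher and at least 2-fold, and 21.1% over the 105 other genes with few vehicle reads described next. The CV of Klhl3 was 14%, against 4.39% from counting alone. For Tmem179 it was 26.4%, against 14.4% from counting alone. The band is not matched to the level of each gene, and low counts add to the CV of the weaker genes.

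Genes with this pattern were rare, and at these limits they ran in a single direction. Of the 50599 genes, 114 had at most 10 vehicle reads and at least 100 reads with 4-OHT, which is 0.225%, and 9 of the 10 genes were among them by the way they were chosen. With the groups exchanged, 0 genes met the same limits. Without 4-OHT library B, and with the limits unchanged, 73 genes met them. Of the 114 genes, 104 were protein coding and 25 had 0 vehicle reads. By reads with 4-OHT, Afap1 ranked 2 among the 114, Tmem132b 5, Pfpl 8, Klhl3 11, Pdyn 22, Pi15 29, Tenm3 30, Chrng 51 and Tmem179 84. Among the 25 genes with 0 vehicle reads, Klhl3 ranked 1, Pdyn 2, Pi15 4, Tenm3 5 and Tmem179 20.

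**Figure D3:**
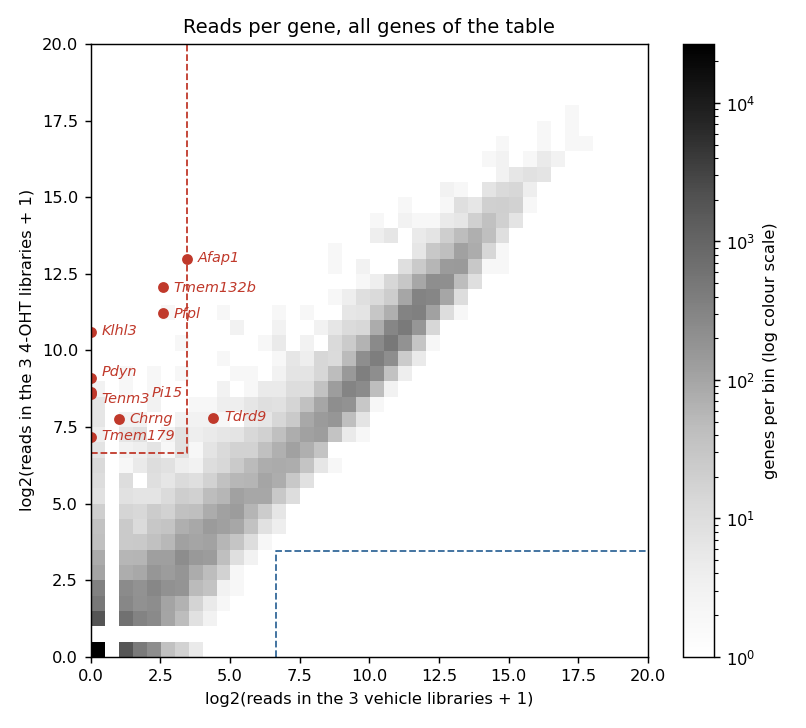
Reads per gene in the 3 4-OHT libraries (y axis) against the 3 vehicle libraries (x axis), both as log2(reads + 1), with all 50599 genes as grey squares on a log colour scale and the 10 genes in red. The dashed red corner holds the 114 genes with at most 10 vehicle reads and at least 100 with 4-OHT; the dashed blue corner, for the groups exchanged, holds 0 genes.

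For each of the 10, the nearest named gene in value was sought among tested genes by Euclidean distance on log2(normalized count + 1) over the 6 libraries. The 10 genes themselves were left out of this search, so a member can lie nearer to another member, as Tenm3 does to Pi15. Klhl3 was nearest to Stfa2, a stefin protease inhibitor, at 1.17 log2 units, and Tmem132b to Mcpt1, a mast cell protease, at 1.40. Afap1 was nearest to Itga3, an integrin subunit, at 1.71, and Pfpl to Met, the receptor of hepatocyte growth factor, at 1.41. The weaker genes had shorter distances. Pdyn (0.63) and Pi15 (0.45) both had Tm4sf4, a transmembrane 4 family member, as the nearest gene. Tmem179 was nearest to Mmp3, a matrix metalloproteinase, at 0.28, Chrng to Skint8, a member of a tandem immunoglobulin-like family, at 0.54, Tenm3 to Arhgap42, a GTPase-activating protein, at 0.60, and Tdrd9 to Ppp1r16b, a regulatory subunit of protein phosphatase, at 0.76. Stfa2, Mcpt1 and Skint8 have close copies in their own clusters, and how reads that fit several copies were counted is not given in the sources used here, so their values are uncertain.

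Whether the families and partners of the 10 genes moved as well was asked with the fit across all genes (limma on log2(normalized count + 1), Benjamini-Hochberg adjusted p under 0.05). Of 155 such genes in the table, 66 were tested: with 4-OHT, 31 were called higher and 20 lower, and 15 were not called. A gene near 0 with vehicle could pass the filter only through its 4-OHT reads, so its call was nearly fixed in advance. Among the genes named below this holds for Crisp1, Flrt3, Ache, Ttn, Cdh5 and Prss56, whose changes are descriptions. Over all 11828 tested genes, 33.0% were higher and 32.5% lower. At least 2-fold changes were made by 9 relatives that were higher (10.1% of all tested genes) and 4 that were lower (2.87%). The median log2 change of the 66 was 0.18, against -0.02 over all tested genes. Scaling by total counts instead of size factors turned the split to 17 higher and 31 lower, since it shifts the median of all genes by -0.30, so the direction of small changes depends on the scaling. Many relatives had few reads or none: 77 of the 155 had at most 10 reads over all 6 libraries, and 40 had 0. Silence was more frequent in the whole table, where 26682 of 50599 genes had 0 reads.

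The kelch-like family of Klhl3 split evenly, with 10 of 25 tested members higher, 10 lower and 5 not called. Klhl12, which brings other substrates to CUL3, had normalized counts of 1113, 905 and 921 in 4-OHT libraries and 328, 327 and 321 in vehicle libraries, in the order A, B and C. Its libraries did not overlap, and it rose by 1.58 ± 0.08 on the log2 scale (SE, limma adjusted p = 1.74e-08). Klhl28 rose by 0.99. Klhl23 fell by 1.14 (limma adjusted p = 0.0238), a call that was lost without 4-OHT library C, vehicle library A or vehicle library C (largest limma adjusted p = 0.0884). Keap1, the CUL3 adaptor for the antioxidant factor Nrf2, fell by 0.34.

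In the CUL3 and WNK pathway in which Klhl3 acts, 5 of 10 tested genes were higher, 2 lower and 3 not called, and none changed 2-fold. The sodium-potassium-chloride cotransporter Slc12a2 rose by 0.49. Cul3 rose by 0.24 and Wnk1 by 0.21, but both signs turned under total-count scaling. Oxsr1, a kinase that WNK kinases activate, fell by 0.18, a call lost without vehicle library B and with DESeq2. Klhl2, the closest relative of Klhl3, was not called (log2 change -0.03, limma adjusted p = 0.787). The kidney members were near 0, with 1 read with 4-OHT and 2 with vehicle for the thiazide-sensitive cotransporter Slc12a3, and 5 reads with 4-OHT and 4 with vehicle for Wnk4.

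Around Afap1, a list of its own relatives, Src family kinases and their regulators and partners had 9 tested genes, of which 5 were higher, 3 lower and 1 not called, and no AFAP relative was among the 9. Src had normalized counts of 3824, 3635 and 3610 in 4-OHT libraries and 1817, 1445 and 1443 in vehicle libraries, in the order A, B and C. The groups did not overlap, and Src rose by 1.24 ± 0.08 (SE, limma adjusted p = 1.47e-07). Prkca, the protein kinase C that acts with Afap1 on Src, rose by 1.12. Fgr, a myeloid Src family kinase, fell by 1.24 on the log2 scale, with 237 reads with 4-OHT and 730 with vehicle. The relatives of Afap1 itself were scarce, with 11 reads with 4-OHT and 23 with vehicle for Afap1l1 and 3 reads with 4-OHT and 0 with vehicle for Afap1l2.

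The opioid system around Pdyn was nearly absent. Penk, the enkephalin precursor, Pnoc, the nociceptin precursor, and the receptors Oprd1 and Oprk1 had 0 reads in all 6 libraries, and Pomc had 20 reads with 4-OHT and 16 with vehicle. Both tested genes of this list process peptides. Cpe, a carboxypeptidase that trims peptide hormones, rose by 1.38, and Pcsk1, a convertase that cuts their precursors, fell by 1.22. The convertase Pcsk2 had 0 reads.

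Of the CAP proteins related to Pi15, Crisp1 (cysteine-rich secretory protein 1, a secreted protein of the epididymis) had normalized counts of 53.2, 111 and 82.7 in 4-OHT libraries and 2.92, 1.98 and 1.44 in vehicle libraries, in the order A, B and C. The groups did not overlap, and Crisp1 rose by 4.71 ± 0.32 (SE, limma adjusted p = 2.29e-07), on 222 reads with 4-OHT and 7 with vehicle. These reads put Crisp1 among the 114 genes with the switched-on pattern. Its 4-OHT libraries had the same order as those of Pi15. Glipr1 fell by 0.93, and Pi16 was not called. Crispld1, which lies 96.1 kb from Pi15, had 12 reads with 4-OHT and 0 with vehicle, too few to test.

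Among the teneurins and their partners, 3 of 4 tested genes were higher and 1 was not called. Flrt3, an adhesion protein that binds latrophilins, had normalized counts of 71.4, 66.6 and 68 in 4-OHT libraries and 2.92, 3.96 and 4.33 in vehicle libraries, in the order A, B and C. The groups did not overlap, and Flrt3 rose by 3.89 ± 0.24 (SE, limma adjusted p = 9.16e-08). The latrophilin Adgrl2 rose by 1.91 and Flrt2 by 0.91, while the latrophilin Adgrl1 was not called (log2 change -0.92, limma adjusted p = 0.0603), though 4 of 12 alternatives called it lower. The other teneurins stayed low, with 21 reads with 4-OHT and 6 with vehicle for Tenm4, 5 reads with 4-OHT and 2 with vehicle for Tenm1, and 1 read with 4-OHT and 0 with vehicle for Tenm2.

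Most partner subunits of Chrng were at or near 0. The fetal muscle receptor also needs alpha, beta and delta subunits, and Chrna1 had 2 reads with 4-OHT and 0 with vehicle, while Chrnd and the adult subunit Chrne had 0 reads in all libraries. Chrnb1, the beta subunit, had 42 reads with 4-OHT and 45 with vehicle and was not called, and the neuronal subunit Chrnb2 rose by 0.40, a call that was lost under total-count scaling and without 4-OHT library B. Of 4 tested genes of the muscle synapse, 3 were higher and 1 was not called. Dok7, the adaptor of the muscle kinase MuSK, had normalized counts of 975, 1098 and 1104 in 4-OHT libraries and 35.1, 33.6 and 23.8 in vehicle libraries, in the order A, B and C. The groups did not overlap, and Dok7 rose by 5.07 ± 0.14 (SE, limma adjusted p = 1.39e-10). Ache, acetylcholinesterase, rose by 4.67 ± 0.45 (SE, limma adjusted p = 3.87e-06) on 152 reads with 4-OHT and 6 with vehicle, which put it among the 114 genes with the switched-on pattern. Agrn, agrin, rose by 0.38, a call lost under total-count scaling, and Rapsn and Musk had 2 reads each with 4-OHT and 0 with vehicle.

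For the remaining genes the relatives were few. Of the Tudor and piRNA genes around Tdrd9, 2 of 6 tested were higher, 3 lower and 1 not called, and Mov10l1, Piwil4, Asz1, Tdrd6 and Stk31 had 0 reads. Piwil2, a PIWI protein that binds piRNAs, rose by 0.75 and Tdrd7 by 0.41, a call that total-count scaling ended for Tdrd7, while Tdrkh, which anchors PIWI proteins at mitochondria, fell by 0.62. Mpeg1, the macrophage relative of Pfpl, had 31621 reads with 4-OHT and 39304 with vehicle and was not called (log2 change 0.06, limma adjusted p = 0.675), and Prf1, C6, C7, C8a and C8b had 0 reads. Tmem132a was not called (log2 change -0.26), and Tmem132c, Tmem132d and Tmem132e had 0 reads.

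**Figure D4:**
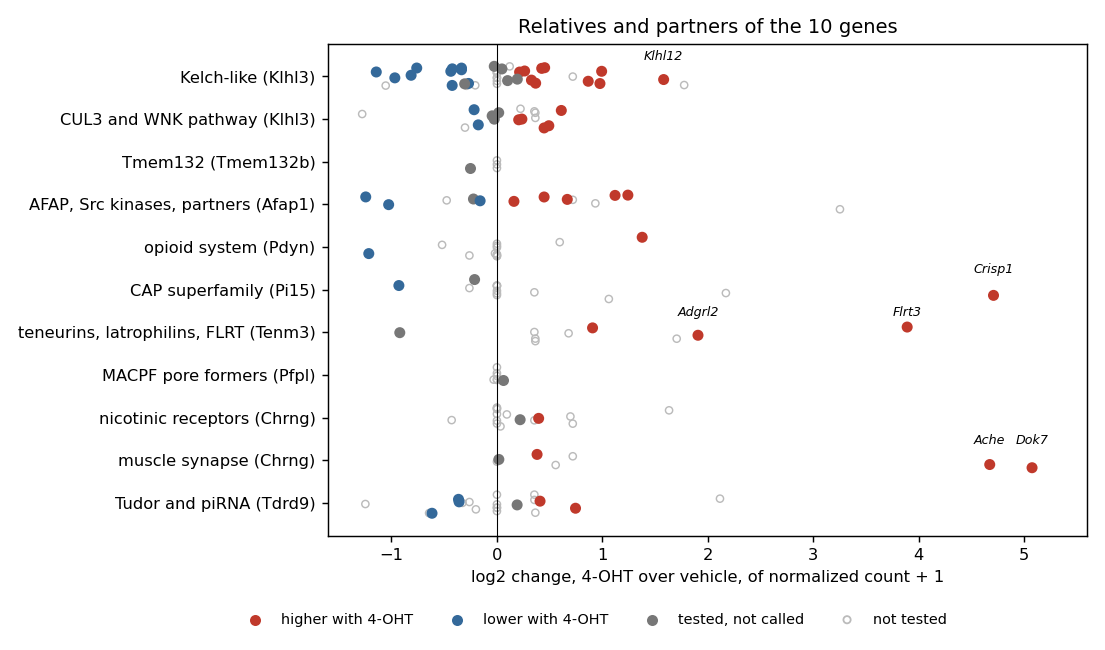
Log2 change of normalized count + 1, 4-OHT over vehicle (x axis), of the relatives and partners of the genes, a row for each list with the gene it belongs to in brackets. Filled points were tested (red higher, blue lower, grey not called) and open points had too few reads; Dok7 (5.07), Crisp1 (4.71), Ache (4.67) and Flrt3 (3.89) lie farthest to the right.

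Markers of the tissues in which the 10 genes are known were mostly at or near 0. Of 13 neuronal markers, 11 had at most 10 reads over all libraries. The summed normalized count of the 13 was 21.5 to 27.2 with 4-OHT and 14.8 to 15.9 with vehicle. The neuronal marker Snap25 had 25 reads with 4-OHT and 2 with vehicle, too few to test. Syp had 33 with 4-OHT and 38 with vehicle and was not called. Of 10 skeletal muscle markers, Myod1, Myog, Myf6, Ckm and Acta1 had 0 reads, and the sum was 24.9 to 31.7 with 4-OHT and 9.89 to 15.6 with vehicle. The muscle marker Ttn rose by 2.99 on 51 reads with 4-OHT and 5 with vehicle. Of 8 germ cell markers 7 had at most 10 reads, and the exception, Piwil2, had 309 reads with 4-OHT and 239 with vehicle and rose by 0.75. All 7 distal kidney markers had at most 10 reads, and of 11 fibroblast, epithelial and endothelial markers 8 did. Cdh5, the endothelial cadherin, rose by 3.28 on 77 reads with 4-OHT and 10 with vehicle, and Pecam1 had 21 reads with 4-OHT and 1 with vehicle. The part of other cell types in the values of the 10 genes was not tested beyond these levels.

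Genes lying beside the 10 were examined next, since position was not used to choose them. Within 100 kb on either side lay 54 other genes of the table, of which 20 had 0 reads and 16 were tested. With 4-OHT, 5 were called higher and 7 lower, and 4 were not called, against the 33.0% and 32.5% of all tested genes, and total-count scaling gave 3 higher and 10 lower. The median log2 change of the 16 was -0.07, against -0.02 over all tested genes. There were 3 neighbours that were higher and at least 2-fold (10.1% of all tested genes), and 1 that was lower (2.87%). The higher calls include genes that passed the filter only through their 4-OHT reads.

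Prss56, a serine protease gene 16.3 kb upstream of Chrng, had normalized counts of 24.9, 19.7 and 22.7 in 4-OHT libraries and 1.95, 0 and 0.721 in vehicle libraries, in the order A, B and C. It rose by 3.76 ± 0.45 (SE, limma adjusted p = 2.09e-05) on 60 reads with 4-OHT and 3 with vehicle. Prss56 passed the filter only through its 4-OHT reads, so this rise is a description. Between Prss56 and Chrng lay Chrnd, 4.59 kb upstream of Chrng, with 0 reads. On the downstream side, Eif4e2, a cap-binding protein gene 1.22 kb away, rose by 0.39, a call lost under total-count scaling.

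Ppp1r13b, a gene of the ASPP family of p53-binding proteins 63.5 kb upstream of Tdrd9, had normalized counts of 1503, 1514 and 1350 in 4-OHT libraries and 408, 394 and 370 in vehicle libraries, in the order A, B and C. Its libraries did not overlap, and it rose by 1.89 ± 0.06 (SE, limma adjusted p = 8.39e-10). Dctd, the deoxycytidylate deaminase gene 74.4 kb from Tenm3, fell by 1.28 ± 0.13 (SE, limma adjusted p = 5.18e-06) with 208 reads with 4-OHT and 639 with vehicle. Around Tmem132b the 3 tested neighbours, Aacs, Bri3bp and Dhx37, all fell, by 0.24, 0.81 and 0.43 on the log2 scale. Mpeg1, 28.7 kb from Pfpl, was not called. For 5 of the 10 genes a single neighbour or none was tested.

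Genes that overlap a member had few reads of their own. Mir874 in Klhl3 had 2 reads with 4-OHT and 0 with vehicle, Gm28154 in Pi15 had 2 with 4-OHT and 1 with vehicle, Gm32842 in Tenm3 had 7 with 4-OHT and 0 with vehicle, and Rd3l at Tdrd9 had 1 with 4-OHT and 0 with vehicle, and the other 3 had 0 reads. How reads of overlapping genes were assigned is not given in the sources used here. These counts therefore do not limit how many reads a member could share with such a gene. Tdrd9 and Tmem179 lie 431 kb apart on chromosome 12 and are the closest pair among the 10 genes. The nearest other gene of the 114 with the switched-on pattern lay 397 kb away for Tdrd9 and 926 kb away for Tmem179, and farther for the other 8. The 10 genes differed widely in span, with a median of 63.2 kb against 21.2 kb for tested genes. Tenm3 (616 kb) and Tmem132b (261 kb) were the longest. Pfpl (4.21 kb), Chrng (8.04 kb), Tmem179 (11 kb) and Pdyn (13.3 kb) were shorter than the median of tested genes.

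**Figure D5:**
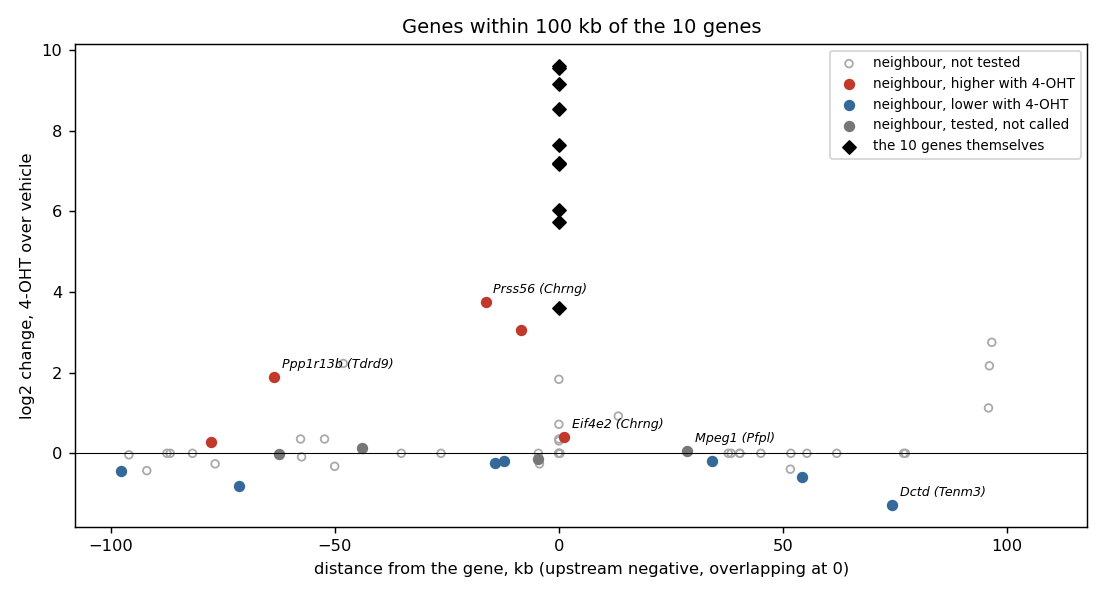
Log2 change, 4-OHT over vehicle (y axis), of the 54 genes within 100 kb of the 10 genes against their distance in kb (x axis, upstream negative). Filled points were tested (red higher, blue lower, grey not called), open points were not, and black diamonds are the 10 genes; most neighbours lie near 0, and Prss56 (3.76) and Ppp1r13b (1.89) are among those that stand above.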

How the data were processed

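The authors' table holds 1 signal per gene and library, deposited as a normalized count: all positive values (100%) of a column are whole multiples, within 1e-06, of the inverse of that library's size factor. Reads recovered with that step were used for depth, filters and intervals. They are whole-number counts, and whether RSEM estimates had been rounded to give them is not stated in the sources used here. An automatic unit check did not accept the recovery for vehicle library B, whose step is close to 1. The log2 fold change of the table is the authors' own, per the file headers. Per the submitters' processing notes, the tools were bcl2fastq 2.20, Trimmomatic 0.35, STAR 2.5.1b, RSEM and DESeq2 1.18.1; the builds named are GRCm38 and mm10. The annotation, strand handling and filters are not given in the sources used here; GENCODE M21 places 92.6% of the gene identifiers where the table does. A single line without values was left out. Limma 3.58.1 (R 4.3.3, mean-variance trend, pseudocount 1, group as the only term) was fitted to genes passing edgeR 4.0.16 filterByExpr (minimum count 10) and tested on simulated data. EdgeR's quasi-likelihood test and DESeq2 1.42.0 on recovered reads, other scalings, filters and pseudocounts, a replicate block and left-out libraries were alternatives. Intervals are exact binomial (Clopper-Pearson) at 95%, and the floor is 3 reads over a group. A ratio is the reads over the library size factors of one group over the same of the other. The members and lists were chosen with earlier results of these data known. The rule named all members, up to 4 called genes of each list by size with its best-known members where reads were few, neighbours changed 2-fold or more, and the nearest named gene; the other relatives, markers and neighbours named were chosen after their values were seen. Some genes that the rule names are not reported here.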

Additional observations from a re-analysis of the deposited data

How the results depend on the processing

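All 70 alternative ratios of the 10 genes, 7 for each, stayed above 1. The choice of the genes made that all but certain, so it is no test of them. Total-count scaling multiplied each ratio by 0.808, and the ratios that moved otherwise did so when a vehicle library was left out, since few vehicle reads remain and a floor of 3 reads then covers fewer reads. Klhl3 had bounds of 395 to 717 without a library, Pdyn 139 to 260.

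Over all genes, total-count scaling gave 2259 higher and 6549 lower; relatives gave 17 higher and 31 lower, and neighbours 3 higher. Without a filter on low counts, 9 neighbours were higher. Neighbours within 50 kb gave 3 higher and 3 lower, those within 200 kb 12 higher and 13 lower. The other fits stayed within 1.5 times the counts reported above: edgeR's quasi-likelihood test gave 3997 higher and 3734 lower genes, and DESeq2 3731 higher and 3236 lower. A vehicle limit of 3 reads gave 68 switched-on genes, and one of 30 gave 178, with 7 in the opposite direction. Leaving out 1 library, an alternative chosen after seeing the data, gave 73 to 139 switched-on genes (73 without 4-OHT library B, with read limits unchanged over fewer libraries) and 0 to 1 in the opposite direction. Leaving out 1 library gave 3601 to 3940 higher and 3378 to 3870 lower genes, 29 to 31 higher and 16 to 21 lower relatives, and 5 higher and 5 to 8 lower neighbours.

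The replicate block gave 4004 higher and 3968 lower genes, 31 and 21 relatives, and 5 and 7 neighbours. Same-letter libraries of the groups correlated by 0.109 (A), 0.036 (B) and 0.12 (C), too little in B to pair the samples; each library still correlated best with its own letter, a hint from the data and not from the design.

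Few vehicle reads limit the upper end of each ratio.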
